A study of Mus musculus with 48 samples.

Results

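Liver RNA was compared between 3 mice fed a medium energy diet of 23/38/38 and 3 mice fed a medium energy diet of 42/29/29, out of 48 mice in the series. The numbers give protein, carbohydrate and fat, in that order, as percent of energy. The diets thus differ by 19 points of protein, offset equally by carbohydrate and fat. Mice entered the groups by their labels. Replicates are numbered in the order of the deposit. All mice ate their diet without restriction from 3 weeks of age, and their livers were taken at 15 months. The series held 20 combinations of composition and energy density (29 mice on high, 14 on medium and 5 on low energy diets), with 1 array per mouse and 1 mouse per cage, per the labels. The question was how the liver transcriptome differs between these protein shares when energy density is held at medium. Sex was not given for single mice, although both sexes entered the study, and the sources used here gave no strain or genotype.

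The liver breaks down surplus amino acids. Aminotransferases and specific oxidases release the nitrogen, and the urea cycle disposes of it, so the enzymes of both are known to follow protein intake. A diet short of protein is known to act the other way: uncharged transfer RNAs activate the kinase GCN2, the transcription factor ATF4 accumulates, and genes such as Asns and the hormone gene Fgf21 are induced. Both diets compared here lie above the lowest protein shares of the series.

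Hepatocyte markers were checked first, and the 7 of 8 that could be tested lay between 7.54 and 13.06 on the deposited log2 scale in every mouse, and albumin (Alb) between 12.85 and 13.06. Differences in cell number and in RNA per cell cannot be told apart in whole liver. One mouse of the 6 stood apart in its sex-linked genes. In 23/38/38 replicate 1 the mean of the Y-linked genes Eif2s3y, Kdm5d and Uty was 5.28 and Xist 0.74, whereas in the other 5 mice Xist was the higher. Xist stood at 4.78 and 9.53 in 23/38/38 replicates 2 and 3, and at 6.09, 5.89 and 9.23 in the 42/29/29 mice. The interquartile range of the array, which measures how far the values spread, was 3.36, 2.80 and 3.48 in the 23/38/38 mice and 3.13, 3.36 and 3.47 in the 42/29/29 mice. The range of 2.80 in 23/38/38 replicate 2 was the second lowest of the 48 arrays. Results below are therefore also given without 23/38/38 replicate 1, which leaves the 5 mice with Xist above the Y-linked genes, or without replicate 2, where this mattered.

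No gene passed the test between the diets. Of 16926 genes, 0 (0%) reached an adjusted p under 0.05 in limma, and the smallest adjusted p was 0.767. At an unadjusted p under 0.05 there were 791 genes, where chance alone gives 846, 599 (3.54%) of them higher and 192 (1.13%) lower at 42/29/29. In 833 genes (4.92%) all 3 values at 42/29/29 lay above all 3 at 23/38/38, and in 329 genes (1.94%) below. The median difference over all genes was 0.05 on the log2 scale and 59.2% of genes were higher at 42/29/29, against 0.00 and 50.2% after quantile normalization. The 599 to 192 split (75.7% higher) became 373 to 337 (52.5%) with that normalization, 720 to 136 (84.1%) with arrays centred on their medians, and 505 to 380 (57.1%) without 23/38/38 replicate 2. The median r over all genes was 0.9709 for 6 pairs of arrays of 1 diet and 0.9705 for 9 pairs of arrays of different diets.

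The 95% interval of a difference reached a median of 0.52 to either side, a factor of 1.43, and 0.89 at the 90th percentile of genes. For 13150 genes (77.7%) the whole interval lay within 1 on the log2 scale in either direction.

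No gene of nitrogen disposal separated the diets. Cps1, the entry enzyme of the urea cycle, stood at 11.93, 12.23 and 12.34 in the 23/38/38 mice and at 12.28, 12.17 and 12.20 in the 42/29/29 mice. Its difference, always taken as 42/29/29 minus 23/38/38, was 0.05 ± 0.14 (SE) with a 95% interval from -0.24 to 0.34. The groups overlapped, and the lowest value was that of 23/38/38 replicate 1. Of 8 urea cycle genes tested 7 had a positive difference, with a median of 0.18 against 0.05 over all genes, 0 had an unadjusted p under 0.05 and 0 had groups without overlap. The ornithine carrier Slc25a15 (0.36), the argininosuccinate lyase Asl (0.22) and Nags (0.20), which makes the activator of Cps1, had the smallest p of the list. Without 23/38/38 replicate 1, the mouse with the lowest list mean, 4 of 8 differences were positive and the median was -0.03.

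Enzymes that degrade single amino acids gave the same picture. Of 35 genes tested 21 had positive differences, the median was 0.04, and 0 reached an unadjusted p under 0.05. Homogentisate dioxygenase (Hgd, tyrosine breakdown) differed by 0.28, the glycine cleavage gene Amt by 0.22 and glutaryl-CoA dehydrogenase (Gcdh, lysine and tryptophan breakdown) by 0.21. Oat, which turns ornithine into a glutamate semialdehyde, stood at 10.56, 10.27 and 11.40 at 23/38/38 and at 11.67, 10.48 and 11.27 at 42/29/29, a difference of 0.40 ± 0.38. Acmsd, which diverts tryptophan breakdown from NAD synthesis, stood at 6.69, 7.54 and 6.99 against 7.40, 8.15 and 7.34, a difference of 0.56 ± 0.59. Both genes overlapped between diets, with 23/38/38 replicate 3 among the 2 highest mice for Oat. Sds, the serine dehydratase, had no probe set with a single gene symbol and was not tested.

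In the methionine and taurine list 10 of 13 differences were positive (median 0.09), and 5 of 13 without 23/38/38 replicate 1. Cth, which releases cysteine from cystathionine, stood at 9.89, 10.73 and 10.84 at 23/38/38 and at 11.13, 11.06 and 10.48 at 42/29/29, a difference of 0.40 ± 0.31 with an interval from -0.22 to 1.02. Its single low mouse was 23/38/38 replicate 1, and the difference without it was 0.10. Mtr, the methionine synthase, and Suox, the sulfite oxidase, differed by 0.27 and 0.20. Csad, which makes the taurine precursor hypotaurine, varied more within 42/29/29 than between diets, at 6.83, 9.60 and 8.28 there against 8.27, 7.85 and 8.14.

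In branched-chain amino acid catabolism every tested gene had the same sign, 20 of 20 positive, against 59.2% of all genes. The median was 0.12, and 0.05 after quantile normalization. Single differences ran from 0.04 to 0.39, and 0 genes had groups without overlap. An unadjusted p under 0.05 was reached by 1 gene (3.54% of all genes were higher at that p). Mccc1 of leucine breakdown (0.39), the phosphatase Ppm1k that activates the branched-chain dehydrogenase (0.36) and its subunit Bckdhb (0.32) had the smallest p. List means, centred per gene on the 6 mice, were -0.11, -0.20 and 0.08 at 23/38/38 and 0.37, 0.04 and -0.18 at 42/29/29, so the 42/29/29 mice spanned nearly the whole range of the 6. Without 42/29/29 replicate 1, the highest mouse, the median was -0.02.

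**Figure D1:**
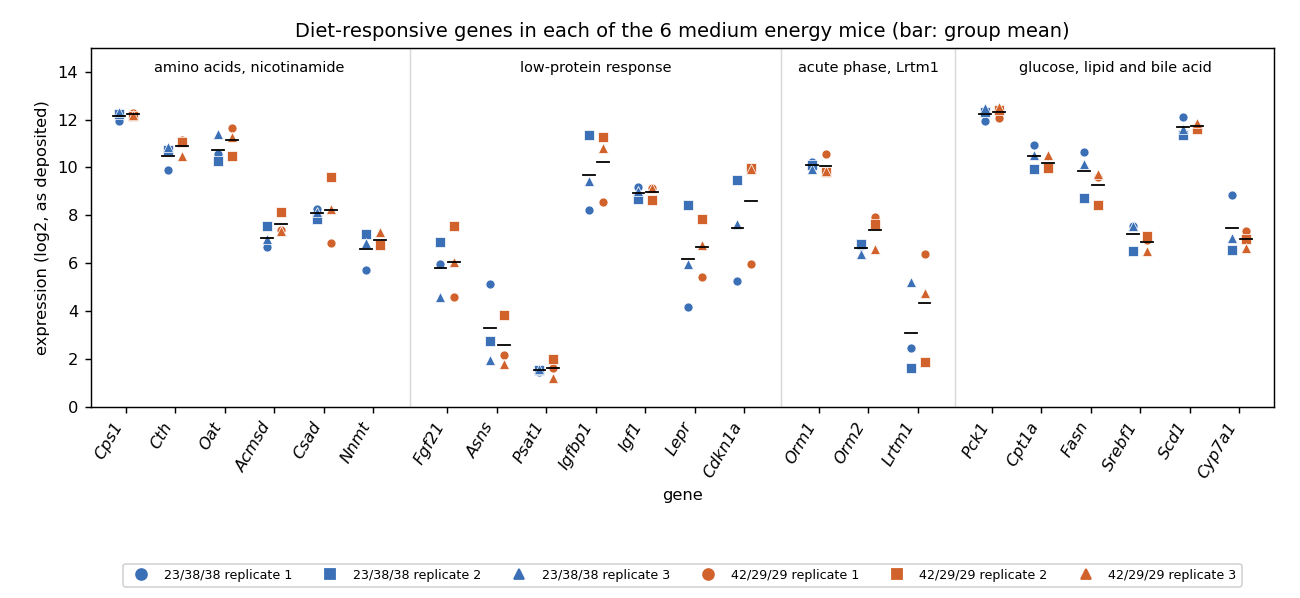
Expression of 22 diet-responsive genes (y axis, log2 as deposited) in each of the 6 mice, grouped by role, with black bars for group means; equal symbols in both colours do not pair mice. The groups overlap for all 22 genes, and single mice such as 23/38/38 replicate 1 for Asns (5.15) lie far from their group.

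Nnmt, which methylates nicotinamide, stood at 5.69, 7.20 and 6.83 at 23/38/38 and at 6.81, 6.77 and 7.32 at 42/29/29. Its difference was 0.39 ± 0.72 and, without 23/38/38 replicate 1, -0.05. The 22 diet-responsive genes were followed whatever their values here, but were chosen with earlier results of these data known. Among them Lrtm1, a membrane protein gene, had the largest difference, 1.26 ± 1.02. It stood at 2.45, 1.62 and 5.20 against 6.39, 1.88 and 4.77, so that replicate 2 of 42/29/29 was lower than 2 of the 3 mice on less protein. The difference was 2.50 without that mouse. The acute phase gene Orm1 did not separate the diets (10.23, 10.09 and 9.94 against 10.58, 9.80 and 9.85), and Orm2 differed by 0.75 ± 1.04. The Orm genes are near-identical, so 1 probe set may read more than 1 of them.

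The ATF4 response is triggered by amino acid shortage through C/EBP-ATF composite elements, whose core was searched as TGATGNAA on both strands. The promoters of its target genes are shown because these genes are known to respond to a shortage of amino acids. In RefSeq promoters of GRCm38.p6, from 250 bases before to 50 after the start of each gene, the core was found in 1304 of 32851 (3.97%). Of the 22 tested genes of the ATF4 list 19 had a promoter in that table, and 8 of them held the core. A match is a description of letters and does not show binding. The stretches below run 5′ to 3′ on the strand of the gene, with the core, or its reverse complement, in capitals.
Fgf21, chr7:45615612-45615639, minus strand: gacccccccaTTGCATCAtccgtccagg
Asns, chr6:7693215-7693242, minus strand: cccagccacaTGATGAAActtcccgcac
Nupr1, chr7:126625563-126625590, minus strand: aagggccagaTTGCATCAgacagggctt
Trib3, chr2:152344029-152344056, minus strand: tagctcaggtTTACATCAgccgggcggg
Chac1, chr2:119351039-119351066, plus strand: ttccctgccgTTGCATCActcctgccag
Atf3, chr1:191183426-191183453, minus strand: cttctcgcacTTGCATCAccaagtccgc
Slc7a11, chr3:50443662-50443689, minus strand: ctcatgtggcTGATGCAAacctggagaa
Slc7a11, chr3:50443643-50443670, minus strand: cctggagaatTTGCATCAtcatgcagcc
Vldlr, chr19:27216810-27216837, plus strand: gcagcaatagTTGCATCAgcgctcctag

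Fgf21, the liver hormone of protein restriction, stood at 5.97, 6.89 and 4.59 at 23/38/38 and at 4.58, 7.55 and 6.04 at 42/29/29. Both the highest and the lowest of the 6 mice ate the higher protein diet. The difference was 0.24 ± 0.73 with an interval from -1.25 to 1.73, and it was -0.51 without 42/29/29 replicate 2 and -0.37 without 23/38/38 replicate 3. Asns, the asparagine synthetase, stood at 5.15, 2.74 and 1.95 against 2.18, 3.82 and 1.78, a difference of -0.69 ± 1.14. Without its highest mouse, 23/38/38 replicate 1, the difference was 0.24. Nupr1, a stress-induced chromatin protein, was the only gene of the 8 with the core whose groups did not overlap (4.92% of all genes lay wholly above). It stood at 3.38, 3.32 and 3.33 against 3.76, 4.55 and 3.79. Its difference of 0.69 ± 0.40 had an interval from -0.12 to 1.502. Trib3, a pseudokinase that restrains ATF4, stood at 3.83, 3.43 and 3.67 against 4.75, 4.68 and 2.97, with 42/29/29 replicate 3 the lowest of the 6.

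Of the 8 genes with the core, 7 had a positive difference, from 0.06 in Slc7a11, the cystine transporter, to 0.86 in Vldlr, a lipoprotein receptor. The differences of Atf3 and of Chac1, which degrades glutathione, were 0.30 and 0.06. Over the whole ATF4 list 18 of 22 differences were positive with a median of 0.20, and 0 reached an unadjusted p under 0.05. Of the 22, 1 gene lay wholly above (4.92% of all genes) and 1 wholly below (1.94% of all genes). Nupr1, Ddit3, the stress factor CHOP (0.66), and Slc3a2, the shared chain of amino acid exchangers (0.43), had the smallest p. The list mean was 0.56 in 42/29/29 replicate 2 and between -0.24 and -0.05 in the other 5 mice, and without that mouse 9 of 22 differences were positive and the median was -0.04.

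**Figure D2:**
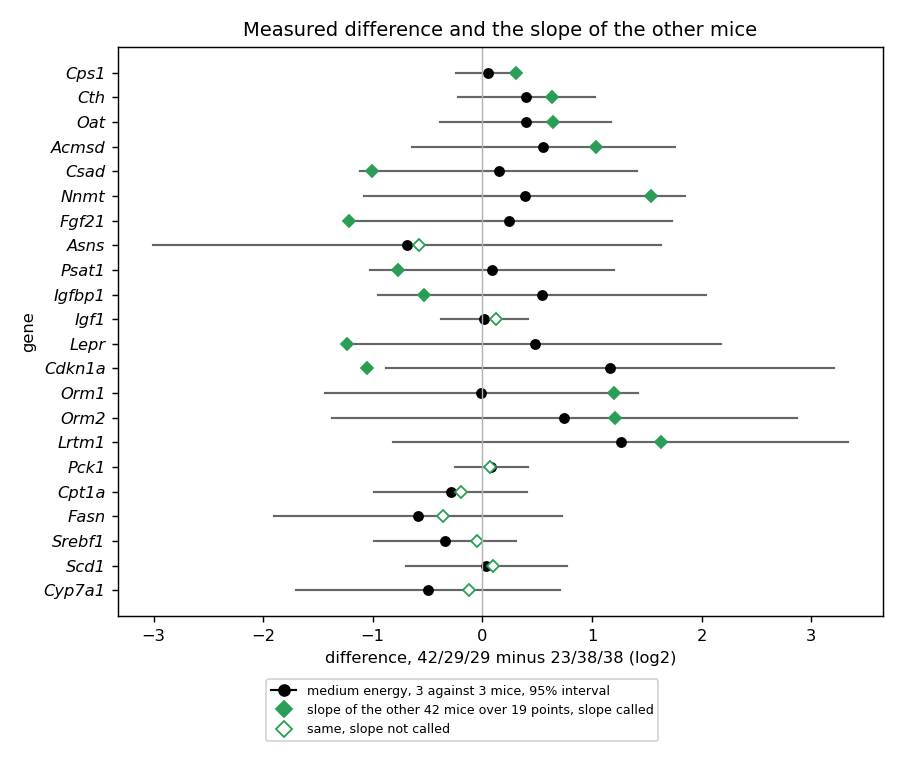
Difference of 22 diet-responsive genes between 42/29/29 and 23/38/38 at medium energy (black points, 95% interval) beside the difference that the protein slope of the other 42 mice gives for 19 points (green diamonds, filled where that slope passed the test), on the log2 scale. All 22 intervals hold 0, and filled diamonds lie outside the interval for Lepr and Cdkn1a, the latter expected at -1.06 and measured at 1.17.

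Amino acid synthesis genes had 5 of 8 positive differences (median 0.12). Psat1 of the serine pathway was close to the array median in all mice, at 1.46, 1.52 and 1.58 against 1.63, 1.99 and 1.21. Glul, the glutamine synthetase, differed by -0.18 and Psph, which ends serine synthesis, by 0.18. For the receptors of Fgf21, Fgfr1 differed by -0.55, Fgfr2 by -0.17 and Fgfr3 by 0.33, and the diets overlapped in all 3.

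Igfbp1, which binds insulin-like growth factor and is known to be induced in fasting and stress, stood at 8.20, 11.37 and 9.45 at 23/38/38 and at 8.55, 11.29 and 10.83 at 42/29/29. Its spread within each diet (SD 1.59 and 1.47) was larger than its difference of 0.55. Igf1 was steady at 8.63 to 9.18 in the 6 mice, a difference of 0.02 ± 0.19 with an interval from -0.37 to 0.41. Lepr, the leptin receptor, stood at 4.18, 8.42 and 5.98 against 5.42, 7.86 and 6.74, a difference of 0.48 ± 0.84. Cdkn1a, which encodes the cell cycle inhibitor p21, stood at 5.25, 9.46 and 7.64 against 5.97, 9.96 and 9.93, a difference of 1.17 ± 1.004 with an interval from -0.88 to 3.21. In Igfbp1, Lepr and Cdkn1a alike, replicate 1 was the lowest and replicate 2 the highest mouse of its diet. Replicate numbers do not pair mice here.

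Most lipid synthesis genes had lower means at 42/29/29, and none of them passed the test. Of 19 cholesterol synthesis genes 17 had negative differences, with a median of -0.47 against 0.05 over all genes, 0 had an unadjusted p under 0.05 and 0 had groups without overlap. Squalene epoxidase (Sqle) stood at 8.74, 7.08 and 8.08 at 23/38/38 and at 8.19, 4.43 and 6.95 at 42/29/29, a difference of -1.44 ± 0.72 (interval -2.90 to 0.02). The sterol oxidase Msmo1 (-0.96) and the reductase Hsd17b7 (-0.57) followed. Both groups held high and low mice: list means were 0.75, -0.50 and 0.49 at 23/38/38 and 0.73, -1.14 and -0.32 at 42/29/29. The median was -0.03 without 42/29/29 replicate 2, -0.98 without 42/29/29 replicate 1, -0.84 without 23/38/38 replicate 2 and -0.20 without 23/38/38 replicate 1.

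Of 22 fatty acid synthesis genes 15 had negative differences, with a median of -0.13. Fasn, the fatty acid synthase, stood at 10.64, 8.72 and 10.14 against 9.58, 8.44 and 9.72, a difference of -0.59 ± 0.65. The low mouse of each diet for Fasn was also the low mouse for the list (-0.65 and -0.62). The median turned to 0.07 without 42/29/29 replicate 2, was 0.07 without 23/38/38 replicate 1 and -0.52 without 23/38/38 replicate 2. Srebf1, which drives the pathway, differed by -0.34 ± 0.32, the regulator Thrsp by -0.76, the acyltransferase Gpam by -0.37 and the citrate carrier Slc25a1 by -0.23. The desaturase Scd1 was within 11.37 to 12.12 in all mice, a difference of 0.04 ± 0.36.

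The list of fatty acid oxidation and of PPAR alpha targets had 21 of 27 positive differences and a median of 0.11. Pdk4, which holds pyruvate back from oxidation, stood at 4.99, 6.12 and 6.08 at 23/38/38 and at 5.87, 7.77 and 7.75 at 42/29/29, a difference of 1.40 ± 0.79. The thioesterase Acot1 stood at 5.53, 6.42 and 5.97 against 6.30, 7.25 and 7.65, a difference of 1.10 ± 0.58. In both genes 42/29/29 replicate 1 lay within the range of 23/38/38. Cyp4a31, an omega hydroxylase, had the opposite sign, -1.03 ± 0.52. Cpt1a, which admits fatty acids to mitochondria, differed by -0.29 ± 0.34, and Pck1, of gluconeogenesis, by 0.08 ± 0.17.

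In the bile acid list 13 of 20 differences were negative with a median of -0.07. Cyp7a1, the rate-limiting enzyme of bile acid synthesis, stood at 8.84, 6.56 and 7.07 at 23/38/38 and between 6.65 and 7.33 at 42/29/29, a difference of -0.50 ± 0.59 that was 0.18 without 23/38/38 replicate 1. Acox2, which shortens the bile acid side chain, differed by -0.18. Slco1a1, an uptake carrier known to be higher in male mouse liver, had the largest negative difference, -3.74 ± 2.62, and stood at 10.10 in 23/38/38 replicate 1 and between 1.43 and 4.03 in the other 5 mice. Cyp7b1, also higher in males, differed by -1.19 and, without that mouse, by 0.19.

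Oxidative phosphorylation genes had 58 of 66 positive differences, with a median of 0.17 and values from -0.35 to 0.74. Ndufb8 of complex I stood at 5.98, 5.96 and 6.22 at 23/38/38 and at 7.47, 6.61 and 6.30 at 42/29/29, without overlap. It was the 1 gene of the list with an unadjusted p under 0.05 (3.54% of all genes were higher at that p). Ndufab1 and Sdhc differed by 0.34 and 0.31, also without overlap, and 5 of 66 genes lay wholly above against 4.92% over all genes. The median was 0.08 without 23/38/38 replicate 1 or without 42/29/29 replicate 1, and 0.31 without 42/29/29 replicate 3.

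In the circadian clock list 11 of 18 differences were negative (median -0.16). Per3 stood at 4.23, 1.64 and 3.68 at 23/38/38 and at 1.97, 1.75 and 1.75 at 42/29/29, a difference of -1.36 ± 0.52 with an interval from -2.41 to -0.31. It did not pass the test over all genes, and 23/38/38 replicate 2 lay below all mice of the other diet. The repressor Bhlhe41 differed by -0.76 and the transcription factor Hlf by -0.42. The list median was -0.74 without 23/38/38 replicate 2 and 0.02 without 23/38/38 replicate 3. The sources used here gave no time of day for the collection.

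**Figure D3:**
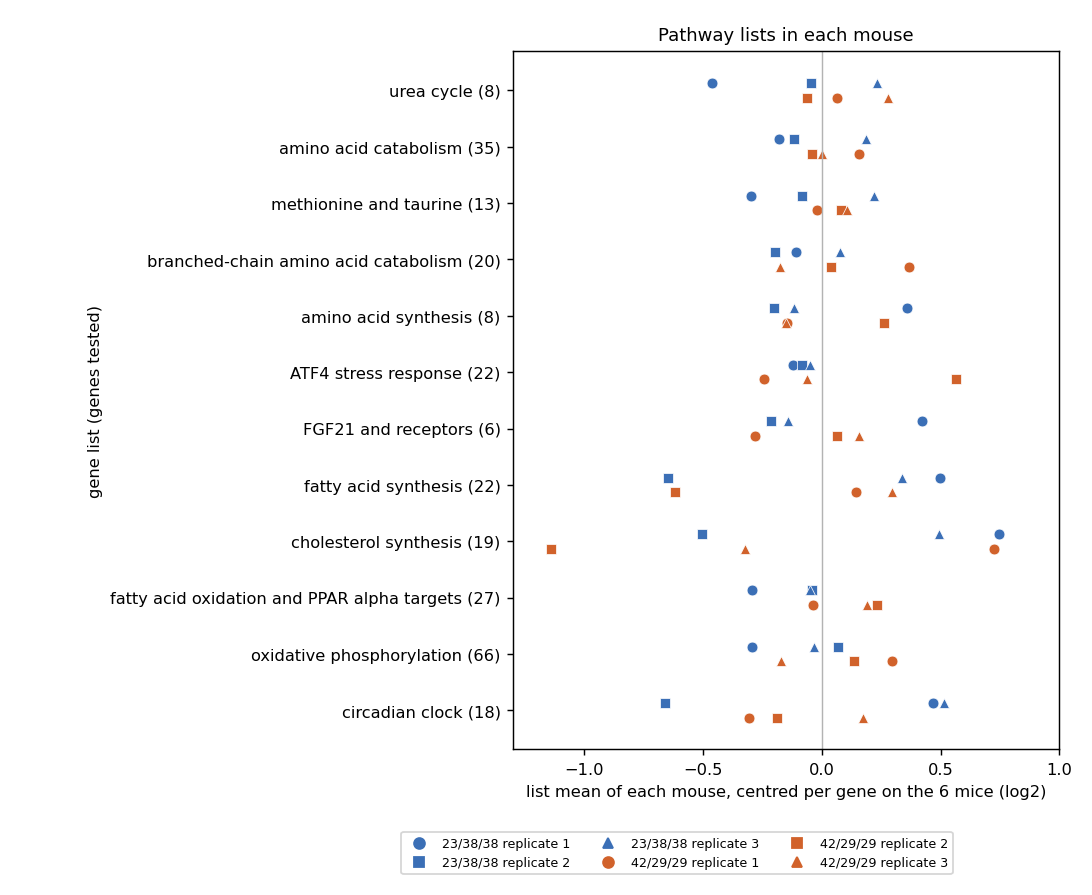
Mean of each pathway list in each of the 6 mice (x axis, log2, each gene centred on its mean over the 6 mice), with the number of genes tested beside each list name. The diets overlap in every list drawn except fatty acid oxidation, where they barely part (-0.0426 at most against -0.0355 at least), and 42/29/29 replicate 2 lies apart in the ATF4 list (0.56) and in cholesterol synthesis (-1.14).

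Of lists with 5 or more tested genes, those of macrophages and of MHC class II had the largest medians apart from the sex lists. All 19 macrophage and Kupffer cell genes had positive differences, with a median of 0.89 and values from 0.55 to 1.44. Of these, 5 reached an unadjusted p under 0.05 (3.54% of all genes did so upward) and 3 lay wholly above (4.92% of all genes). Adgre1, which encodes the macrophage marker F4/80, stood at 5.33, 5.68 and 5.92 at 23/38/38 and at 5.84, 7.53 and 6.56 at 42/29/29. Cd68 stood at 5.47, 5.17 and 5.85 against 6.04, 7.22 and 6.26, and the Kupffer cell lectin Clec4f at 6.73, 7.88 and 7.62 against 8.10, 8.05 and 7.86. Itgax, the integrin CD11c, stood at 1.28, 2.33 and 1.51 against 1.41, 4.21 and 3.44, a difference of 1.32 ± 0.56, and the tetraspanin Cd63 and the monocyte receptor Ccr2 differed by 1.10 and 0.55.

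List means for macrophages were -0.85, -0.12 and -0.32 at 23/38/38 and -0.22, 1.32 and 0.20 at 42/29/29, so that 42/29/29 replicate 2 was the highest mouse. Without it 18 of 19 differences were still positive, the median was 0.51 and 0 reached an unadjusted p under 0.05. Without 23/38/38 replicate 1 all 19 were positive, the median was 0.67 and again 0 reached an unadjusted p under 0.05. Over all 18 alternatives the median lay between 0.51 and 1.14. The MHC class II list, which marks antigen-presenting cells, had 6 of 6 positive differences and a median of 0.64, or 0.27 without 42/29/29 replicate 2. Its leading genes were H2-Ab1 (0.98), H2-Eb1 (0.88) and H2-Aa (0.84), and 3 of 6 had an unadjusted p under 0.05 (3.54% of all genes were higher at that p). Without 42/29/29 replicate 2, or without 23/38/38 replicate 1, 0 of the 6 were higher at that p.

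The T and NK cell list had 13 of 15 positive differences and a median of 0.45 (0.29 without 42/29/29 replicate 2), with 4 of 15 genes higher at an unadjusted p under 0.05 (3.54% of all genes) and 3 wholly above (4.92% of all genes). Without that mouse 0 genes were higher at that p, and 2 were without 23/38/38 replicate 1. The chemokine Ccl5 stood at 3.57, 4.97 and 4.63 at 23/38/38 and at 4.48, 6.03 and 5.87 at 42/29/29, a difference of 1.07 ± 0.46. The granzyme genes Gzmb and Gzma differed by 1.003 and 0.92, and by 0.28 and 0.19 without 42/29/29 replicate 2, where they were highest (4.32 and 3.51). The defining T cell marker Cd3e stood at 3.19, 3.46 and 3.27 against 3.64, 4.08 and 4.86, without overlap. The neutrophil markers S100a8 and S100a9 were close to the array median in all 6 mice, between 1.02 and 1.92.

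Stellate cell and fibroblast genes had 17 of 18 positive differences with a median of 0.44, and 5 were higher at an unadjusted p under 0.05, against 3.54% of all genes. Lum, a collagen-binding proteoglycan, stood at 4.29, 4.73 and 4.45 against 4.98, 6.75 and 4.86, a difference of 1.04 ± 0.41. Tagln, of contractile cells, and Lrat, which stores retinol in stellate cells, differed by 1.03 and 0.75. The collagen genes stood out in a single mouse: Col1a1 was 6.10 in 42/29/29 replicate 2 and between 3.26 and 4.57 in the other 5, and Col3a1 was 7.01 there and between 4.44 and 4.97 elsewhere. Without that mouse 10 of 18 differences were positive, the median was 0.13 and 1 gene was higher at an unadjusted p under 0.05. The cholangiocyte marker Epcam was also highest there, at 5.49 against 2.31 to 3.08. Krt19, a further cholangiocyte marker, was not. It stood at 3.02 there and was highest, at 3.53, in replicate 2 of the lower protein diet, with a difference of 0.11 between diets.

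All 15 genes of sinusoidal endothelium had positive differences with a median of 0.38, and 0 reached an unadjusted p under 0.05. Bmp2 (0.78), the Wnt agonist Rspo3 (0.56) and Pecam1 (0.45) had the smallest p. This list did not follow 42/29/29 replicate 2 (-0.05) but 42/29/29 replicate 3 (0.62) and, at the low end, 23/38/38 replicate 2 (-0.54), without which the median was 0.11. Hepatocyte markers had 2 of 7 positive differences, a median of -0.07 and list means between -0.17 and 0.08. The part of a change in the share of these cells was not tested.

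Interferon-stimulated genes had 13 of 16 positive differences and a median of 0.35, between 0.24 and 0.51 over all 18 alternatives. The guanylate-binding protein gene Gbp3 stood at 2.36, 3.21 and 3.50 at 23/38/38 and at 5.22, 4.29 and 3.75 at 42/29/29, without overlap, a difference of 1.40 ± 0.40 (limma adjusted p = 0.852). Usp18, which restrains interferon signalling, differed by 1.02 and Ifit2 by 0.53. List means were -0.32, -0.25 and -0.03 at 23/38/38 and 0.39, 0.21 and close to 0 at 42/29/29, so 42/29/29 replicate 2 was not the highest mouse here.

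**Figure D4:**
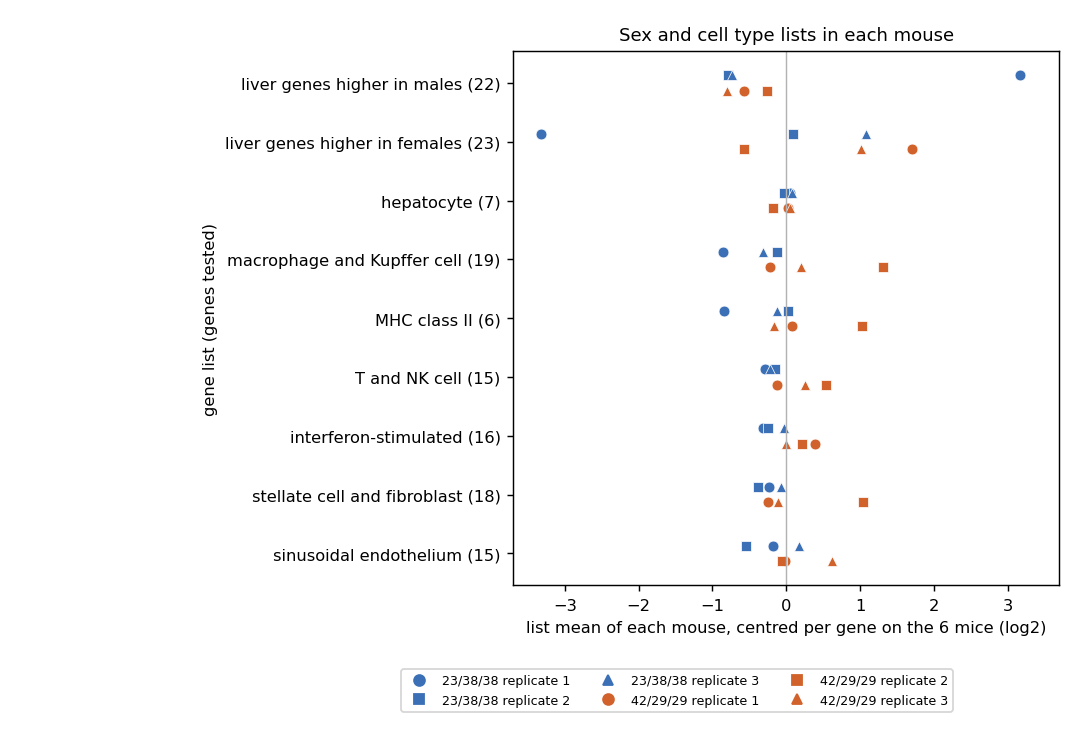
Mean of sex, cell type and interferon lists in each of the 6 mice (x axis, log2, each gene centred on its mean over the 6 mice), with the number of genes tested beside each name. 23/38/38 replicate 1 lies apart in both sex lists (3.16 and -3.32), and 42/29/29 replicate 2 in the macrophage (1.32), MHC class II (1.03) and stellate cell (1.04) lists.

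Liver genes known to differ by sex had the widest differences, and these came with the 1 mouse whose Y-linked genes lay above Xist. Of 22 genes higher in males 21 had negative differences (median -0.96), and of 23 genes higher in females 21 had positive ones (median 1.56). Without 23/38/38 replicate 1 the medians were 0.20 and 0.07. A1bg, a female-biased plasma protein gene, stood at 1.26 in that mouse, at 5.80 and 9.46 in the other 23/38/38 mice and at 10.76, 7.93 and 9.25 at 42/29/29. C8a, of complement, and Serpina12, both on the male list, differed by -1.74 and -0.92, and by -0.98 and 0.06 without that mouse. Ntrk2, the receptor TrkB, also on the female list, stood at 2.39, 1.76 and 3.68 against 5.28, 4.24 and 4.56. Its groups did not overlap, and the difference of 2.08 ± 0.67 was 1.97 without that mouse. Prom1 differed by 1.11, and by 0.60 without it.

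The remaining lists had small medians. Of 43 lists with 5 or more tested genes 30 had medians within 0.2 of 0, and 15 kept the sign of the median in all 18 alternatives. Cytosolic ribosomal proteins (41 of 55 positive, median 0.11), the proteasome (27 of 31, 0.10) and the tricarboxylic acid cycle (11 of 18, 0.10) were like the oxidative phosphorylation list in sign. NRF2 and glutathione genes had 18 of 21 positive differences (median 0.16, and 0.00 without 42/29/29 replicate 2), cell cycle genes 18 of 24 (median 0.28, and 0.01 without that mouse) and p53 targets 8 of 10 (median 0.21, and 0.04 without it). No gene of these lists was called.

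Among single genes, the 12 with the smallest p in each direction were taken as a description. The 12 higher at 42/29/29 had differences from 0.70 to 1.34. All 12 had groups without overlap, which the choice by p in the same mice favours (4.92% of all genes lay wholly above). Cd27, a co-stimulatory receptor of lymphocytes, had the smallest p, at 1.51, 1.57 and 1.45 against 2.32, 2.55 and 2.99, a difference of 1.11 ± 0.24 (limma adjusted p = 0.767). Fgd3, an exchange factor for Cdc42, stood at 1.15, 1.75 and 1.91 against 2.08, 3.26 and 2.86, a difference of 1.13 ± 0.26, and was called in 1 alternative, without 42/29/29 replicate 1 (1.46, limma adjusted p = 0.0493). Tmem171 was the other gene called there (1.43, limma adjusted p = 0.0493).

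Some of these genes belong to cells other than hepatocytes. S100a4, of motile leukocytes and fibroblasts, stood at 1.23, 1.07 and 1.45 against 1.995, 2.60 and 1.82. The C-type lectin receptor Clec4a2 differed by 0.70, the matrix protein gene Tnc by 1.16 and Csrp1, of contractile cells, by 1.34. Lhfp stood at 5.13, 4.65 and 5.43 against 6.08, 6.77 and 6.23, a difference of 1.29 ± 0.34. The hyaluronan receptor Layn differed by 0.88 and Lrrc66 by 0.83. Of genes with housekeeping roles, Trappc4, a subunit of vesicle tethering complexes, stood at 4.85, 4.25 and 4.86 against 5.79, 5.50 and 5.44. The condensin subunit Smc4 differed by 0.79 and the centrosomal Nedd1 by 0.89. Of the 12 genes 6 had both group means above the highest array median of 1.86, and 1, Fgd3, had a protein slope that passed the test in the other mice, downward at -0.16 per 10 points. At high energy, with 1 mouse on 42/29/29, 5 of the 12 had a positive difference. At low energy, with 1 mouse per diet, 6 did. The shares over all genes were not counted.

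The 12 lower at 42/29/29 lay near the bottom of the scale. Their differences ran from -0.45 to -1.15, and 10 had a 42/29/29 mean below the highest array median. Groups without overlap were found in 11, which the choice by p again favours (1.94% of all genes lay wholly below). Macroh2a3, a histone variant gene, stood at 1.68, 3.06 and 1.15 against 0.89, 0.65 and 0.89, and Mthfs, of folate metabolism, at 2.52, 2.60 and 3.16 against 1.90, 2.19 and 2.13. Fgf22, Cryga, Kncn, Defb4, Krtap9-3, Btbd18, 4930565D16Rik, Gm17250, Lmod2 and Tex101 completed the 12, with limma adjusted p between 0.828 and 0.909, and 0 of the 12 had a slope that passed the test in the other mice. At high energy 1 and at low energy 4 of these 12 had a negative difference.

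Sult1e1 and Serpinb1a were chosen after their values were seen, as the 2 largest positive differences with an unadjusted p under 0.05. The estrogen sulfotransferase Sult1e1 stood at 1.16, 1.75 and 2.72 at 23/38/38 and at 5.86, 4.51 and 4.72 at 42/29/29, without overlap. Its difference was 3.15 ± 0.97 with an interval from 1.17 to 5.13 (limma adjusted p = 0.909), and 2.79 without 23/38/38 replicate 1. The low energy mice of the same 2 compositions, 1 mouse each, differed by 2.57. The high energy mice, with 1 mouse on 42/29/29, differed by -0.14. In the mice of neither group the protein slope of Sult1e1 was 0.64 per 10 points and passed the test (limma adjusted p = 0.00517). The protease inhibitor Serpinb1a stood at 3.37, 4.14 and 6.11 against 7.20, 7.17 and 5.92, a difference of 2.22 ± 0.69. It differed by -0.37 at low and -0.39 at high energy. Its slope was 0.24 per 10 points and did not pass the test (limma adjusted p = 0.138).

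The 42 mice in neither group gave a protein response against which the 6 could be set. With energy density and the exchange of carbohydrate for fat in the model, 609 genes (3.6%) had an upward and 883 (5.22%) a downward slope past the test. The slope times 19 points gives the difference expected between 23/38/38 and 42/29/29 if the response is a straight line over all protein shares fed. Whether it is straight was not tested, so a gap from the expected value can also come from a response that is flatter in this range. Of the 609 genes with an upward slope, 450 (73.9%) were higher at 42/29/29 in the 6 mice, against 59.2% of all genes. Their median difference was 0.13 and the expected median 0.22. The expected value lay inside the 95% interval for 587 of them. Only 23 were higher and 1 lower at an unadjusted p under 0.05, so nearly all of these intervals also held 0. The count inside thus cannot tell the expected response from no difference.

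Most genes with a downward slope did not have its sign in these 6 mice. Of 883 genes 566 (64.1%) were higher at 42/29/29, against 59.2% of all genes. Their median difference was 0.12, against 0.05 over all genes, where the slope gave -0.33. The share over all genes was 50.2% after quantile normalization, and the slope-called genes were not counted under it. The expected value lay inside the interval for 685 of them. Most intervals also held 0, as 50 genes were higher and 4 lower at an unadjusted p under 0.05. The number of slopes depended on the interquartile range of the array, whose values in the 6 mice are given above. With that range in the slope model 40 genes were called upward, 31 of them higher at 42/29/29, and 19 downward, 8 of them higher and 11 lower. The part of the array range in the measured differences was not tested. Without the single medium energy 14/29/57 mouse the slope counts were 671 and 1083, and 502 and 668 of these genes were higher at 42/29/29.

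**Figure D5:**
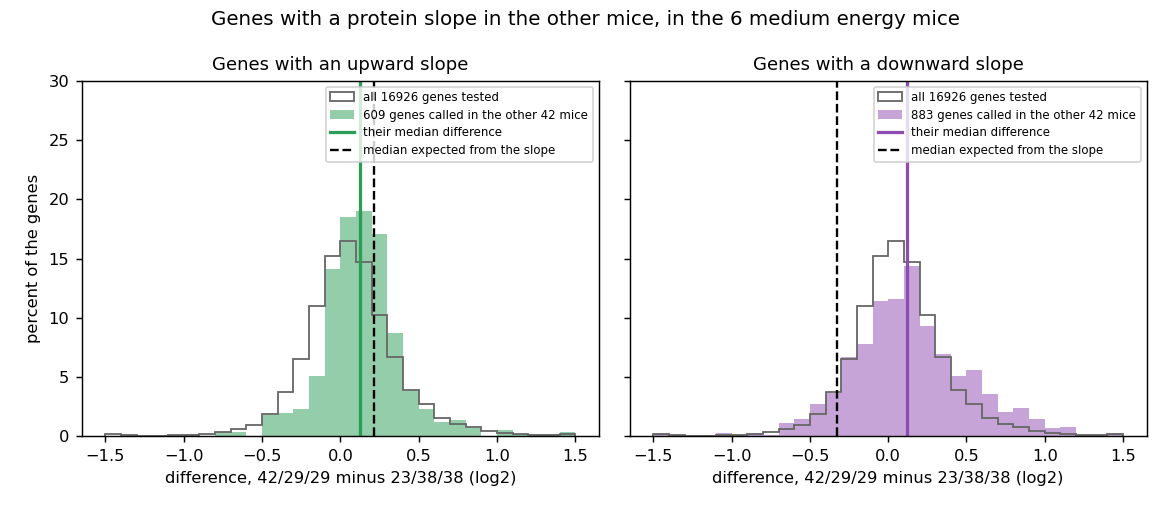
Distribution of the difference between 42/29/29 and 23/38/38 (x axis, log2, values beyond 1.5 placed in the end bins; y axis, percent of genes) for genes with an upward (left, 609) or downward (right, 883) protein slope in the other 42 mice, beside all 16926 genes (grey outline). The solid line is the median of the drawn genes (0.13 and 0.12) and the dashed line the median that the slope gives (0.22 and -0.33).

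Of the 22 diet-responsive genes 14 had a slope that passed the test in the other mice, against 3.6% of all genes upward and 5.22% downward. The 22 were chosen with earlier results of these data known, so a high count can follow from the choice. For 12 of the 14 the expected difference lay inside the interval. The intervals of all 22 also held 0, so a place inside does not tell the slope value from no difference. For Fgf21 the slope gave -1.21 where 0.24 was measured, for Lepr -1.24 against 0.48, for Csad -1.01 against 0.15 and for Psat1 -0.77 against 0.09. The expected values of Cdkn1a (-1.06) and Lepr lay below the lower bounds of their intervals, -0.88 and -1.22. On the upward side the slope gave 0.30 for Cps1 (0.05 measured), 0.63 for Cth (0.40), 0.65 for Oat (0.40), 1.04 for Acmsd (0.56), 1.54 for Nnmt (0.39) and 1.63 for Lrtm1 (1.26). It also gave 1.205 for Orm1 (-0.01) and 1.21 for Orm2 (0.75). Of these 8 genes 7 had the sign of the slope. Without 23/38/38 replicate 1 the differences of Cps1 (-0.07) and Nnmt (-0.05) were negative, and that of Orm1 was 0.06.

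Whole lists can be set beside the slopes in the same way. The slope of the urea cycle had a median of 0.14 per 10 points with 6 of 8 genes called upward, that of amino acid catabolism 0.13 with 20 of 35, and that of oxidative phosphorylation 0.10 with 40 of 66. For these lists the expected difference was inside the interval of 8 of 8, 32 of 35 and 66 of 66 genes. An unadjusted p under 0.05 was reached by 0, 0 and 1 of them, so nearly all of these intervals also held 0. These counts therefore cannot tell the slope value from no difference. The ATF4 list had 9 of 22 genes called downward in the other mice (1 upward) and stellate cell genes 7 of 18. Their measured medians of 0.20 and 0.44 had the opposite sign, and the expected difference was inside the interval for 18 of 22 and 8 of 18. For macrophage genes, 1 of 19 of which had a called slope, it was inside for 5. Over all genes 3.6% were called upward and 5.22% downward. With the interquartile range of the array in the slope model only 40 genes were called upward and 19 downward over all genes. The list counts were not repeated with that term, so how many of these calls hold under it is not known.

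A step at lower protein, measured in mice outside both groups, gives a scale for these values. At high energy, 23/38/38 (3 mice) against 5/48/48 (4 mice) had 21 genes (0.124%) called higher and 56 (0.331%) called lower at 23/38/38. Nnmt (3.66) and Orm1 (4.02) were higher there and Fgf21 (-3.02), Psat1 (-2.56) and Nupr1 (-2.32) lower, all past the test. The medium energy step from 23 to 42 percent protein measured 0.39, -0.01, 0.24, 0.09 and 0.69 for these 5 genes. All 5 passed the test at high energy, and such a choice favours large values there. Lepr (-3.14) and Asns (-3.05) did not pass it there (limma adjusted p = 0.0605 and 0.179). They measured 0.48 and -0.69 at medium energy.

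The same 2 compositions were also fed at high energy, to 3 mice on 23/38/38 and 1 mouse on 42/29/29. That 1 mouse had Y-linked genes above Xist (5.52 against 1.94), as had 2 of the 3 on 23/38/38, and the narrowest interquartile range of the 48 arrays (2.78). The difference between diets differed between medium and high energy in 4 genes (0.0236%): Lmod2 (limma adjusted p = 0.0017), Ids (0.0151), Olfr667 (0.0233) and Htr4 (0.0429). Each call rests on that mouse, which is assumed to vary like the others. The count of 4 became 7 without medium energy 23/38/38 replicate 1, 26 without 23/38/38 replicate 3, 12 without 42/29/29 replicate 1, and 2 without 42/29/29 replicate 2 or 3. Fgf21, Cdkn1a and Csad differed by -2.70, -2.75 and -2.88 at high energy against 0.24, 1.17 and 0.15 at medium energy, and these contrasts did not pass the test (limma adjusted p = 0.453, 0.463 and 0.322).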

How the data were processed

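Per the labels, biotin-labelled RNA from whole liver (Qiagen AllPrep) was hybridized to Affymetrix arrays. The authors deposited 1 value for each of 41345 probe sets, from -0.51 to 13.42, read here as log2 expression from that range. How the authors corrected and normalized them is not given in the sources used here. They were taken as deposited. The number of arrays limits the precision.

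Names came from the platform annotation: 23521 probe sets had 1 symbol, 1814 several and 16010 were not listed. A gene was its probe set with the highest mean (22180 genes), and genes whose mean exceeded the 30th percentile over probe sets (1.17) were tested. limma 3.58.1 in R 4.3.3 (lmFit, contrasts.fit, eBayes with a trend) was fitted to all 48 mice with 1 mean for each of 20 combinations. P-values were two-sided and adjusted by Benjamini-Hochberg over 16926 genes, with a threshold of 0.05. The script was tested on simulated data. Intervals used 33.0 degrees of freedom. The slope model held protein share, carbohydrate against fat, and energy as a factor.

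Groups, members and the 48 gene lists were chosen with earlier results of these data known. Named genes were the 12 with the smallest p in each direction, 3 of each described list by smallest p, defining markers, genes of the ATF4 list with the promoter core and 23 diet-responsive genes. Alternatives changed the filter, probe set, normalization, weights, trend, covariates or mice fitted, or left out each mouse.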

Additional observations from a re-analysis of the deposited data

Results flagged for a closer look

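The difference between 42/29/29 and 23/38/38 differed between medium and high energy in 4 genes, each by the test of that difference. Lmod2, a muscle filament gene, had a medium minus high energy value of -1.58 ± 0.23 (SE; limma adjusted p = 0.0017): -0.49 at medium energy and 1.09 at high energy, where the single 42/29/29 mouse stood at 2.67 and the 23/38/38 mean was 1.57. It kept its call in the 15 alternatives in which it was tested. Every alternative kept that single high energy mouse, so none checks its value. Ids, a lysosomal sulfatase, had a value of 2.59 ± 0.45 (limma adjusted p = 0.0151), 0.32 at medium and -2.28 at high energy, with that mouse at 3.40 against a mean of 5.67, and lost its call in 1 of 16 alternatives. The olfactory receptor gene Olfr667 had a value of -2.12 ± 0.38 (limma adjusted p = 0.0233; call lost in 4 of 15) and the serotonin receptor gene Htr4 -1.34 ± 0.26 (limma adjusted p = 0.0429; call lost in 8 of 15). The high energy 42/29/29 mouse stood at 2.97 and 2.39 in these genes, against 23/38/38 means of 1.27 and 1.08.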

How the results depend on the processing

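With 18 alternatives the count of genes called between the diets was 0 in 17 and 2 without 42/29/29 replicate 1; the smallest adjusted p over all alternatives ran from 0.0493 to 1.0, and genes with an unadjusted p under 0.05 from 409 to 1364. No paired analysis was possible because the labels give no replicate numbers that the diets share. The count of genes whose difference differed between medium and high energy (4) was 49 with no filter, 1 above the 50th percentile, 47 after quantile normalization, 2 after median centring, 127 with array weights and 2 with the interquartile range as a term, and leaving out 1 mouse of the 6 gave 2 to 26; the 6 mice or the 14 medium energy mice alone gave no such contrast. The cause of these changes was not tested.

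Of 1981 values of 111 single genes in the alternatives 50 had the opposite sign, in 24 genes, and 1 passed the threshold (Fgd3). Differences of opposite sign with both added terms were Asns 0.014, Igf1 -0.0030 and Orm1 0.13, with the Y-linked minus Xist term Asns 0.024 and Orm1 0.082, and with the interquartile range Igf1 -0.021 and Orm1 0.11. Array weights gave Fgfr3 -0.11, Igf1 -0.10, Orm1 0.018 and Scd1 -0.056, median centring Htr4 0.0053 and Orm1 0.029, quantile normalization Igf1 -0.016, and the probe set of highest variance Glul 0.086. Leaving out single mice gave ranges across 0 for these genes: Asl -0.065 to 0.40, Asns -1.35 to 0.24, Cps1 -0.068 to 0.13, Csad -0.53 to 0.85, Cyp7a1 -0.96 to 0.18, Cyp7b1 -2.25 to 0.19, Fgf21 -0.51 to 0.98, Fgfr1 -0.96 to 0.15, Fgfr3 -0.21 to 0.64, Glul -0.49 to 0.14, Htr4 -0.12 to 0.020 and Igf1 -0.12 to 0.19. The ranges were Igfbp1 -0.19 to 1.39, Lepr -0.52 to 1.59, Nags -0.019 to 0.36, Nnmt -0.053 to 0.70, Orm1 -0.26 to 0.13, Pck1 -0.069 to 0.22, Psat1 -0.10 to 0.29, Psph -0.068 to 0.45, Scd1 -0.12 to 0.25, Serpina12 -1.53 to 0.060, Slc25a1 -0.50 to 0.020 and Thrsp -1.15 to 0.0087. Both slope alternatives, without the medium energy 14/29/57 mouse and with the interquartile range, were chosen after seeing the data. Signals near the array median limit the genes at the bottom of the scale.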
